A study of Mus musculus with 39 samples.

Results

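The genes for the proteins of the mitochondrial ribosome were followed through sciatic nerve injury and repair. They were taken as the protein-coding genes whose GENCODE mouse symbol is Mrpl or Mrps followed by a number and, in a few cases, a letter from a to c. The rule found 78 genes among the 55573 in the count tables, and all 78 were among the 18442 genes with enough reads to be tested. Of these, 49 carry an Mrpl and 29 an Mrps symbol. The symbols do not follow the subunits exactly, since the products of *Mrps18a* and *Mrps30* sit in the large subunit and that of *Mrps36* is a component of the 2-oxoglutarate dehydrogenase complex rather than of the ribosome, which leaves 51 large subunit and 26 small subunit proteins.

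The mitochondrial ribosome, or mitoribosome, translates the few messenger RNAs that mitochondrial DNA encodes, all of them for subunits of the respiratory chain and ATP synthase. Its ribosomal RNAs, *mt-Rnr1* and *mt-Rnr2*, are made inside the organelle, whereas all of its proteins are encoded in the nucleus, made in the cytosol and imported. Part of these proteins descend from bacterial ribosomal proteins, and part were added to the mitochondrial ribosome during evolution. Schwann cells, the glia of peripheral nerve, dedifferentiate after a crush, clear myelin and later remyelinate the regrown axons, and macrophages enter the nerve at the same time.

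Endoneurium is the tissue inside the perineurium, and it was taken from the distal sciatic nerve of C57BL/6 mice of both sexes that were 2 to 4 months old. Controls (*Lepr*-ctrl, *Lepr* fl/fl) carried the floxed leptin receptor alleles alone, and *Lepr*-cKO mice (*Lepr* fl/fl::*Dhh*-Cre) carried in addition the *Dhh*-Cre transgene. The paper used this transgene to ablate the receptor in Schwann cells. Which other cells of the nerve keep the receptor was not tested here. The nerve of one side was crushed (injured) and the contralateral nerve served as healthy tissue, at 2 or 4 weeks post-crush (wpc) in different mice, so that time and any batch cannot be told apart. *Lepr*-ctrl gave 5 healthy and 5 injured nerves at 2 wpc and 5 healthy and 4 injured nerves at 4 wpc. *Lepr*-cKO gave 6 healthy and 5 injured nerves at 2 wpc and 5 healthy and 4 injured nerves at 4 wpc, which makes 39 libraries. They come from 22 mice, 17 of which gave both nerves. Libraries are named below as in the labels, where the number is that of the animal.

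Library totals ranged from 10905806 to 45016322 reads assigned to genes, and the 78 genes together received 21234 to 83557 of them. Injured nerves at 4 wpc had the fewest reads, with a median total of 14158795 (*Lepr*-ctrl) and 17552170.5 (*Lepr*-cKO). *Lepr*, counted over the whole gene and in all endoneurial cells, was at 5.79 to 14.8 CPM (counts relative to the scaled total of the library) in healthy and 20.8 to 121 CPM in injured nerves and did not pass the test between genotypes in any of the 4 comparisons (adjusted p = 0.362 to 1), and a count over the whole gene does not show the loss of single exons in 1 cell type. One library stood apart. In the *Lepr*-cKO library SLRKO2wpc126i, an injured nerve at 2 wpc, 15 skeletal muscle genes summed to 54700 CPM, against at most 50.7 CPM in each of the other 38, and 43 of the 78 genes were higher there than in any of the other 9 injured nerves at 2 wpc, so results that rest on it are given with and without it. In the *Lepr*-cKO library KO-169Sni, an injured nerve at 4 wpc, the 2 mitochondrial ribosomal RNAs summed to 1490 CPM, the lowest of all libraries. The 10 Schwann cell genes read as markers of the tissue summed to at least 11600 CPM in all 39 libraries.

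Per kilobase of exon, the genes were expressed at moderate levels. In healthy *Lepr*-ctrl nerves at 2 wpc the median gene of the 78 stood at 6.83 CPM per kb, against 2.85 over all genes tested. The highest was *Mrps12*, a small subunit protein of the decoding center (chr7:28739641-28741820), at 38.2 CPM per kb, followed by *Mrps6* (29.6), of the small subunit, and *Mrpl52* (29.6), a large subunit protein without a bacterial counterpart. The lowest were *Mrpl53* (0.0737), *Mrpl23* (0.582) and *Mrpl19* (1.74). The reads of a gene that shares exon sequence with another can be lost or misassigned, and 33 of the 78 genes share exon bases with an annotated neighbour, 12 of them over 15% of their exons. *Mrpl53* is the extreme case, with 695 of its 790 exon bases also in *Gm42688* on the same strand, and it had 0 to 11 counts per library, so its fold changes are counted but not described further. No healthy nerve was above 0.156 CPM and the highest injured nerve was at 0.563 CPM, so it passed the expression filter through injured nerves alone. It is counted as higher in 3 of the 4 comparisons of injured with healthy nerves below, and these calls are not read as a rise.

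As a group, the genes were higher in injured than in healthy nerves, by a small step each. In bulk tissue, a change in the number of cells of a type and a change in RNA per cell cannot be told apart. The mean log2 CPM over the 78 genes was 4.09 ± 0.07 (SD, n = 5) in healthy and 4.33 ± 0.03 (n = 5) in injured *Lepr*-ctrl nerves at 2 wpc, and 4.10 ± 0.03 (n = 6) and 4.38 ± 0.15 (n = 5) in *Lepr*-cKO nerves. At 4 wpc it was 3.99 ± 0.07 (n = 5) and 4.41 ± 0.04 (n = 4) in *Lepr*-ctrl, and 4.00 ± 0.09 (n = 5) and 4.33 ± 0.07 (n = 4) in *Lepr*-cKO nerves. Every injured nerve lay above every healthy nerve, as the plot of the mean level per library shows. In each of the 17 mice with both nerves the injured nerve was the higher, by 0.16 to 0.55 on the log2 scale.

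**Figure D1:**
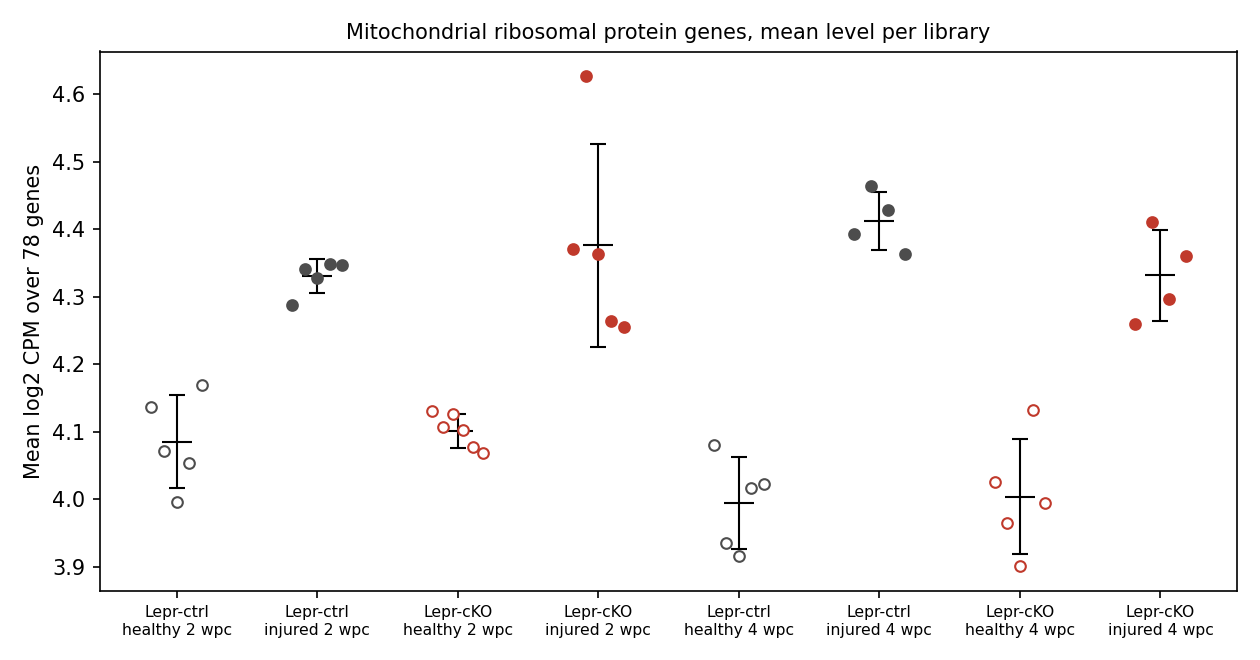
Mean log2 CPM over the 78 mitochondrial ribosomal protein genes (y axis, cut to the range of the data) in each library of the 8 groups (x axis), with open points for healthy and filled points for injured nerves, grey for *Lepr*-ctrl and red for *Lepr*-cKO, and bars for the mean ± SD. Healthy nerves sit between 3.90 and 4.17 and injured nerves between 4.26 and 4.63, and the highest point is the *Lepr*-cKO library SLRKO2wpc126i.

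Gene by gene, 39 of the 78 were higher and 7 lower in injured than in healthy *Lepr*-ctrl nerves at 2 wpc at an adjusted p under 0.05 (edgeR quasi-likelihood test, adjusted over all genes tested), that is, 50% and 8.97% of them, where 33.7% and 30.2% of all genes tested were higher and lower. In *Lepr*-cKO nerves at 2 wpc 44 were higher (56.4%) and 4 lower (5.13%), against 35.9% and 29.2% of all genes. Without SLRKO2wpc126i these counts were 42 and 8, and the shares of all genes 35.4% and 29.6%. At 4 wpc 49 were higher (62.8%) and 3 lower (3.85%) in *Lepr*-ctrl nerves, against 32.4% and 31.2% of all genes. In *Lepr*-cKO nerves at 4 wpc 39 were higher (50%) and 2 lower (2.56%), against 29.6% and 25.8%. The small counts of lower genes moved with single libraries. In *Lepr*-ctrl nerves at 2 wpc it was 4 without the healthy nerve SLRKO2wpc120c, and in *Lepr*-cKO nerves at 4 wpc it was 1 without KO-169Snc, KO-176Snc, KO-177Snc, KO-169Sni, KO-175Sni or KO-176Sni.

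The steps were small. The median log2 fold change of the 78 genes was 0.25, 0.30, 0.37 and 0.31 in the same order, where the median of all genes tested was 0.08, 0.10, 0.02 and 0.06. It was 0.24 in *Lepr*-cKO nerves at 2 wpc without SLRKO2wpc126i. Few members reached the further threshold of an absolute log2 fold change above 1. Of the 78 genes 2 passed both thresholds in *Lepr*-ctrl nerves at 2 wpc and 0 in *Lepr*-cKO nerves, against 34.1% and 34.3% of all genes, and 7 and 1 at 4 wpc, against 36% and 27.6%. The 2 were *Mrps6*, which was lower, and *Mrpl53*. The 7 were *Mrpl53*, *Mrpl52*, *Mrpl34*, *Mrps9*, *Mrps21*, *Mrpl41* and *Mrps18c*, and the 1 was *Mrpl53*.

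In all, 32 of the 78 genes (41%) were higher in all 4 comparisons of injured with healthy nerves, where 21.6% of all genes tested were, and 0 were lower in all 4, where 20.1% of all genes were. Without SLRKO2wpc126i, 34 genes were higher in all 4, the 32 among them, and 21.8% of all genes. A further 24 were higher in 1 to 3 comparisons and never lower, 8 were lower in 1 to 3 and never higher, and 14 passed in none. The 32 held 14 of the 29 large subunit proteins with a bacterial counterpart, 7 of the 22 that are specific to mitochondria, 8 of the 16 small subunit proteins with a bacterial counterpart and 3 of the 10 that are specific to mitochondria. Of the 66 genes that share at most 15% of their exon bases with a neighbour, 28 were among the 32.

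**Figure D2:**
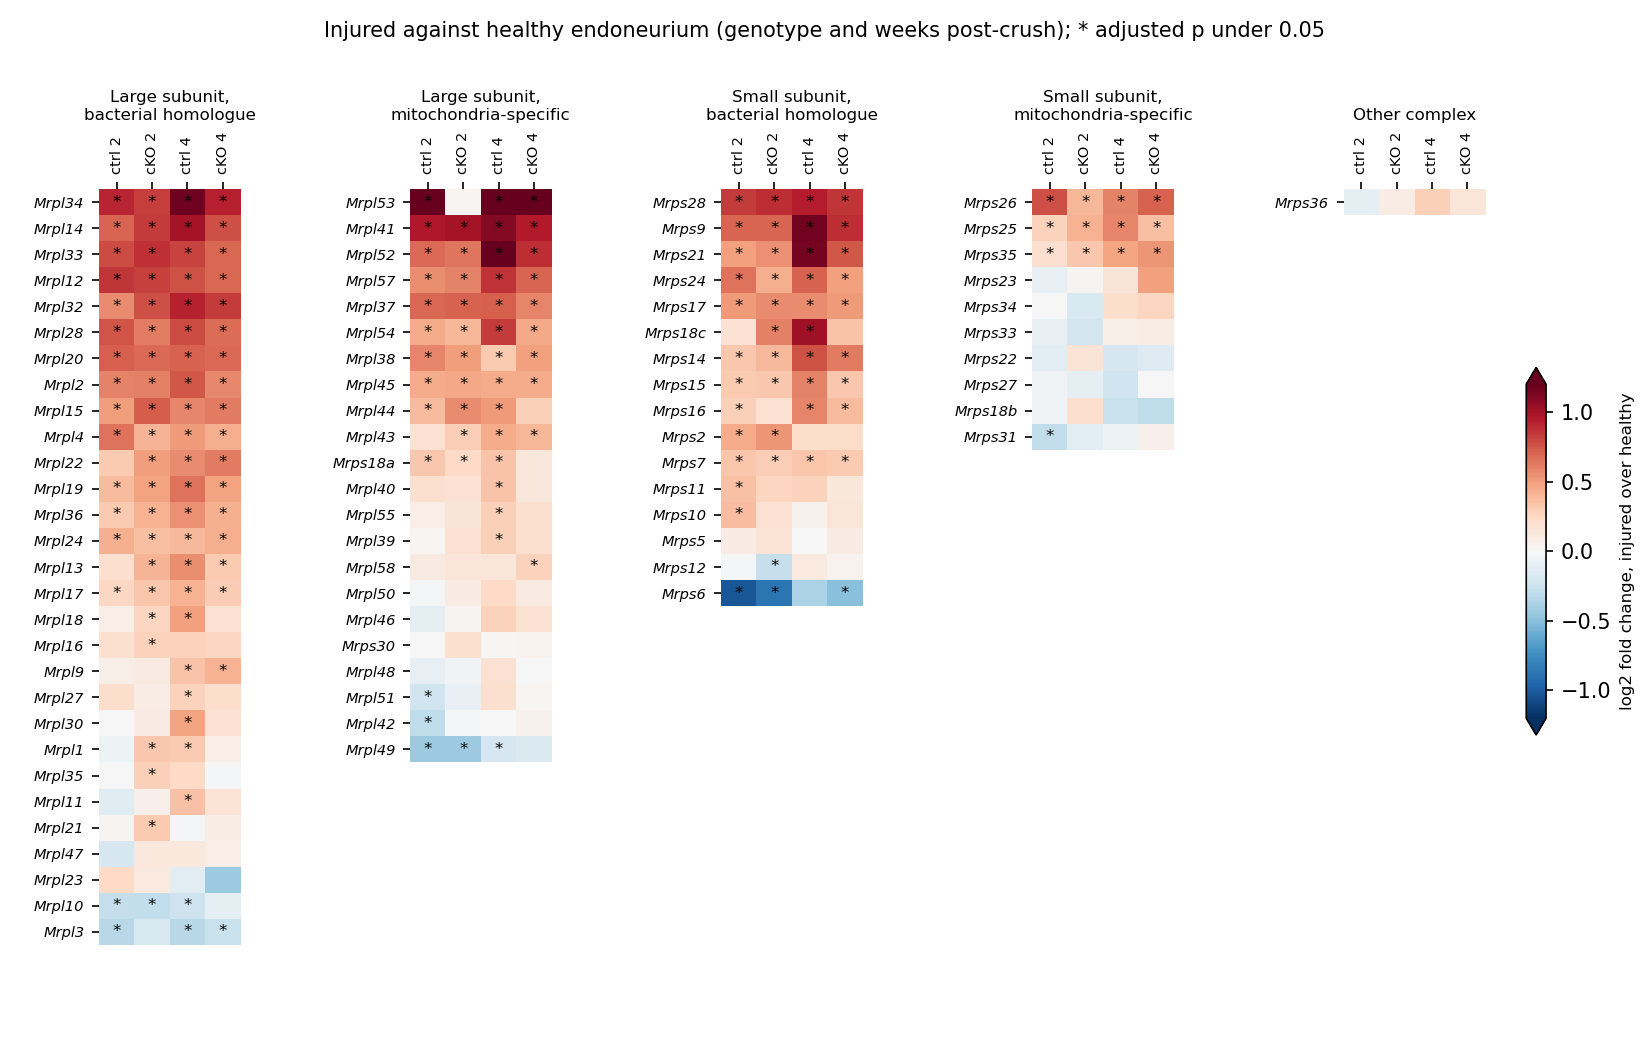
Log2 fold change (color, red for higher and blue for lower in injured nerves, with values beyond 1.2 shown in the end color) of each of the 78 genes (rows, by subunit and origin) in the 4 comparisons of injured with healthy nerves (columns, by genotype and weeks post-crush), with a star at an adjusted p under 0.05. Large subunit and bacterial-type small subunit genes are mostly red, while 7 of the 10 mitochondria-specific small subunit genes show no star for a rise.

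Among large subunit genes, *Mrpl41* and *Mrpl34* were the only ones, *Mrpl53* aside, among the 5 with the highest fold changes in at least 3 of the 4 comparisons. *Mrpl41* encodes a protein that only mitochondrial ribosomes have (chr2:24974117-24975098 on the minus strand, build GRCm38). In *Lepr*-ctrl nerves at 2 wpc it was at 10.4, 11.5, 12.1, 12.4 and 12.4 CPM in the 5 healthy and 20.5, 21.00, 23.5, 23.7 and 25.7 CPM in the 5 injured nerves. In *Lepr*-cKO nerves it was between 11.3 and 12.5 (median 12.03) CPM in the 6 healthy and at 17.9, 23.1, 24.2, 26.6 and 27.3 CPM in the 5 injured nerves. The groups did not overlap in either genotype. At 4 wpc the injured nerves stood at 19.9, 21.3, 22.6 and 23.01 CPM in *Lepr*-ctrl and 15.4, 16.7, 19.5 and 25.5 CPM in *Lepr*-cKO mice, above 9.29 to 11.3 CPM in all healthy nerves. The log2 fold changes were 0.96 ± 0.11 (SE, adjusted p = 1.55e-09) and 0.99 ± 0.10 (SE, adjusted p = 2.2e-10) at 2 wpc, and 1.10 ± 0.11 (SE, adjusted p = 3.68e-10) and 0.95 ± 0.11 (SE, adjusted p = 1.6e-08) at 4 wpc, in the order *Lepr*-ctrl and *Lepr*-cKO, and it was higher in the injured nerve of all 17 mice with both.

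*Mrpl34*, a short bacterial-type protein of the large subunit (chr8:71464959-71465747 on the plus strand), was at 9.17, 10.8, 11.4, 12.6 and 12.6 CPM in healthy and 23.8, 23.9, 25.3 and 28.7 CPM in injured *Lepr*-ctrl nerves at 4 wpc. Healthy and injured nerves were far apart there, and the log2 fold change was 1.17 ± 0.16 (SE, adjusted p = 6.43e-08). In the other 3 comparisons it was 0.91 (*Lepr*-ctrl, 2 wpc), 0.83 (*Lepr*-cKO, 2 wpc) and 0.93 (*Lepr*-cKO, 4 wpc). *Mrpl52* was at 25.9, 27.1, 30.4, 30.7 and 33.2 CPM in healthy and 66.1, 76.2, 79.7 and 80.2 CPM in injured *Lepr*-ctrl nerves at 4 wpc, without overlap, and its log2 fold change of 1.36 ± 0.12 (SE, adjusted p = 2.29e-11) was the highest there after that of *Mrpl53*. In injured *Lepr*-cKO nerves at 4 wpc it was at 39.3, 50.8, 60.7 and 67.4 CPM, where 3 of the 4 nerves lay below all injured *Lepr*-ctrl nerves and the highest lay among them.

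*Mrpl12* forms the flexible stalk that recruits translation factors, and its product also binds the mitochondrial RNA polymerase. It was at 14.9, 16.5, 17.1, 19.3 and 22.5 CPM in healthy and 28.2, 29.6, 30.6, 36.2 and 38.5 CPM in injured *Lepr*-ctrl nerves at 2 wpc, with a log2 fold change of 0.85 ± 0.13 (SE, adjusted p = 1.21e-06). All injured nerves were above all healthy ones in each of the 4 comparisons. In the injured *Lepr*-cKO nerves at 2 wpc it was at 29.4, 30.8, 30.9, 31.5 and 51.5 CPM, and the highest of these was SLRKO2wpc126i. *Mrpl33* and *Mrpl14*, of bacterial type, had log2 fold changes of 0.78, 0.87, 0.81 and 0.69 and of 0.70, 0.84, 0.99 and 0.77 in the order *Lepr*-ctrl 2 wpc, *Lepr*-cKO 2 wpc, *Lepr*-ctrl 4 wpc and *Lepr*-cKO 4 wpc, and each passed in all 4. Taken by place in the large subunit, 3, 3, 5 and 3 of 6 stalk-region genes were higher in that order, 4, 5, 6 and 4 of 8 genes at the exit of the peptide tunnel, and 1, 2, 4 and 1 of 7 genes of the central protuberance, where 33.7%, 35.9%, 32.4% and 29.6% of all genes were higher.

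In the small subunit, *Mrps28*, *Mrps9* and *Mrps21* rose, all of bacterial type. *Mrps28* (chr3:8802146-8923918) was at 12.8, 13.4, 15.3, 15.3 and 16.6 CPM in healthy and 22.2, 23.9, 27.2, 28.6 and 29.1 CPM in injured *Lepr*-ctrl nerves at 2 wpc, without overlap. Its log2 fold changes were 0.84, 0.88, 0.94 and 0.85 in the same order, each with an adjusted p of 1.56e-07 or lower. *Mrps9* (chr1:42851233-42905683), whose bacterial relative reaches toward the bound transfer RNA, was at 18.3, 19.4, 19.98, 20.1 and 21.1 CPM in healthy and 38.5, 43.9, 44.9 and 49.5 CPM in injured *Lepr*-ctrl nerves at 4 wpc, so that the lowest injured nerve was well above the highest healthy one. Its log2 fold change was 1.16 ± 0.12 (SE, adjusted p = 5.32e-10) there and 0.88 ± 0.12 (SE, adjusted p = 2.17e-07) in *Lepr*-cKO nerves. *Mrps21* was at 11.5, 12.3, 15.1, 15.4 and 15.5 CPM in healthy and 26.9, 29.2, 30.3 and 37.4 CPM in injured *Lepr*-ctrl nerves at 4 wpc, again without overlap, with a log2 fold change of 1.15 ± 0.12 (SE, adjusted p = 7.9e-10).

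**Figure D3:**
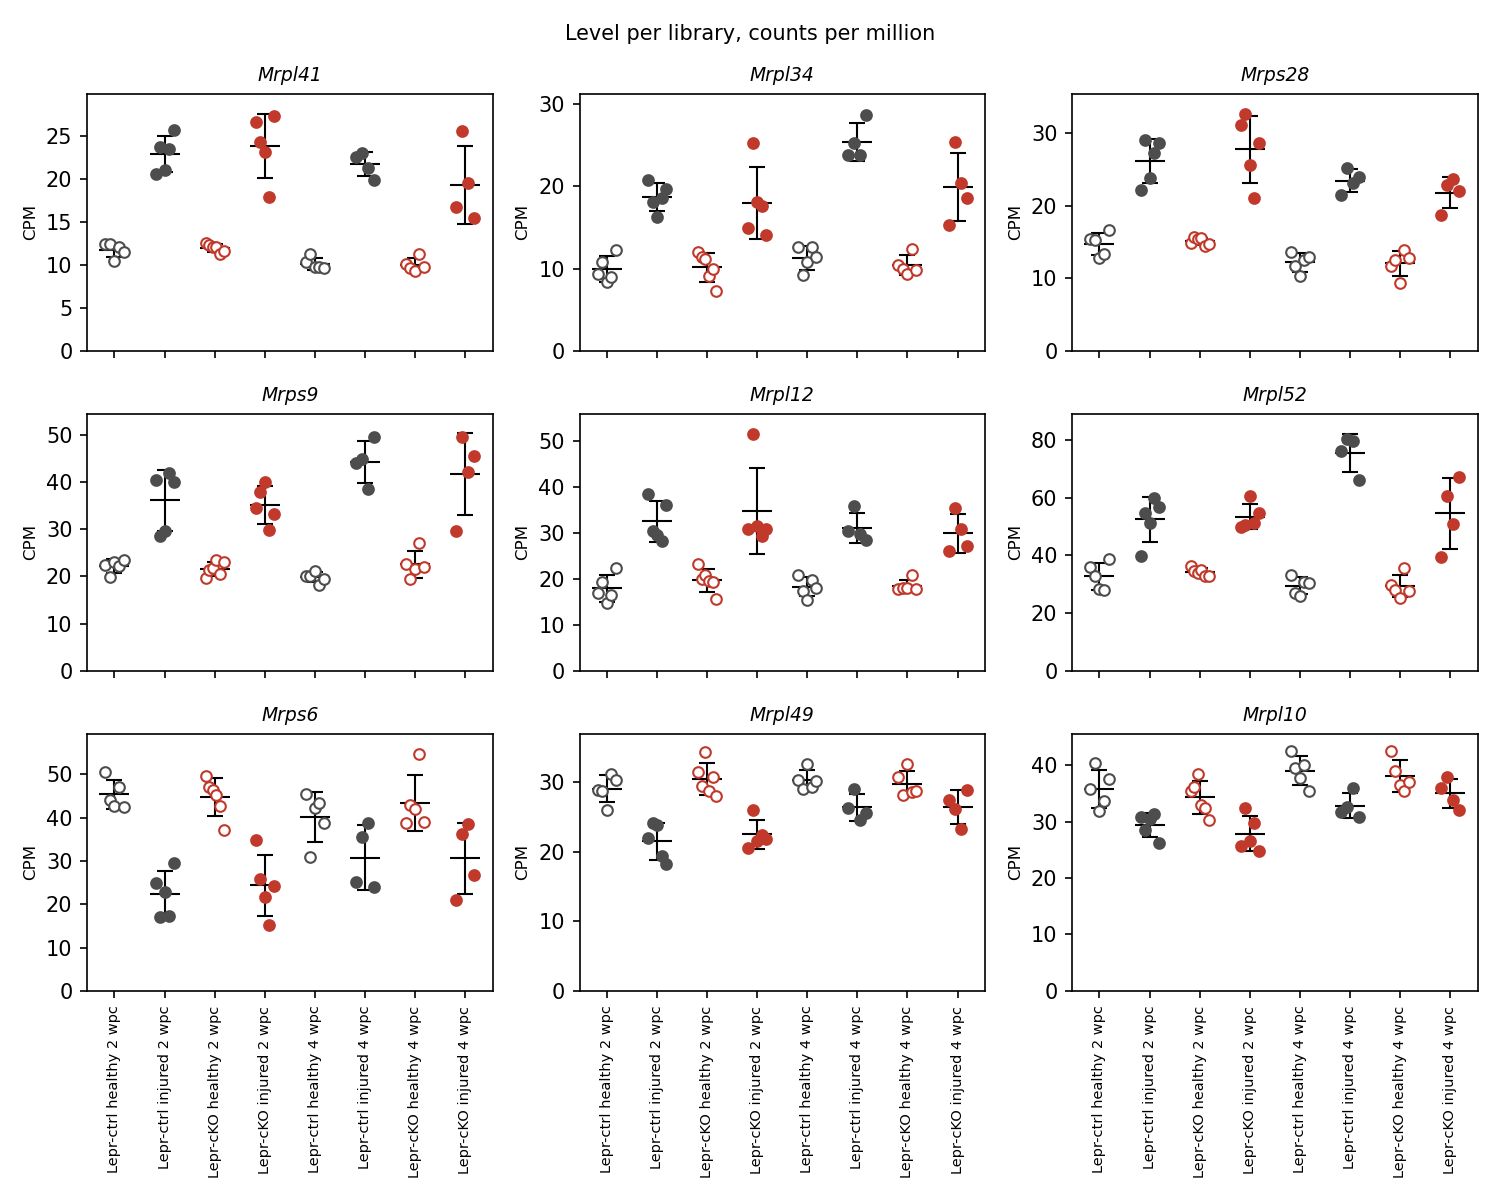
CPM (y axes, from 0) of 9 genes in each library of the 8 groups (x axes), with open points for healthy and filled points for injured nerves, grey for *Lepr*-ctrl and red for *Lepr*-cKO, and bars for the mean ± SD. *Mrpl41*, *Mrpl34*, *Mrps28*, *Mrps9*, *Mrpl12* and *Mrpl52* are higher in injured nerves, and *Mrps6*, *Mrpl49* and *Mrpl10* lower, with *Mrps6* at 42.5 to 50.5 CPM in healthy and 17.2 to 29.6 CPM in injured *Lepr*-ctrl nerves at 2 wpc.

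By origin, the counts of the small subunit were uneven. Of its 16 bacterial-type genes 12, 10, 10 and 9 were higher in the order *Lepr*-ctrl 2 wpc, *Lepr*-cKO 2 wpc, *Lepr*-ctrl 4 wpc and *Lepr*-cKO 4 wpc, with medians of 0.34, 0.35, 0.57 and 0.33 (log2 fold change). Of its 10 mitochondria-specific genes 3 were higher in each, the same 3, namely *Mrps25*, *Mrps26* and *Mrps35*, with medians over the 10 of -0.04, 0.10, 0.11 and 0.17. Of all genes tested, 33.7%, 35.9%, 32.4% and 29.6% were higher, so the 3 of 10 lay near the share of all genes. The *Lepr*-cKO median at 2 wpc was -0.04 over these 10 without SLRKO2wpc126i. In the same fit 12 of the 16 bacterial-type genes were higher, with a median of 0.30. *Mrps25* shares 69.8% of its exon bases with *Nr2c2* on the opposite strand, and with libraries that do not mark strand the reads of such a pair cannot be told apart. The large subunit counterparts were closer to each other, with medians of 0.25, 0.36, 0.50 and 0.42 for 29 bacterial-type and 0.19, 0.18, 0.33 and 0.24 for 22 mitochondria-specific genes. The difference between the classes was not tested.

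Against the direction of the group, 8 genes were lower in at least 1 comparison. The small subunit gene *Mrps6* (chr16:92058270-92112227 on the plus strand), next to the most abundant of the 78 per kilobase, changed most. It was at 42.5, 42.8, 44.1, 47.2 and 50.5 CPM in healthy and 17.2, 17.2, 22.8, 24.96 and 29.6 CPM in injured *Lepr*-ctrl nerves at 2 wpc, and between 37.3 and 49.8 (median 45.9) and at 15.3, 21.6, 24.2, 25.9 and 34.8 CPM in *Lepr*-cKO nerves, without overlap. The log2 fold changes were -1.02 ± 0.18 (SE, adjusted p = 5.62e-06) and -0.88 ± 0.17 (SE, adjusted p = 3.04e-05). At 4 wpc the injured nerves had 23.9, 25.1, 35.5 and 38.7 CPM in *Lepr*-ctrl and 21.1, 26.9, 36.2 and 38.6 CPM in *Lepr*-cKO mice, against 31.00 to 45.5 and 38.7 to 54.6 CPM in healthy ones, which overlapped in *Lepr*-ctrl mice. The log2 fold changes were -0.38 ± 0.19 (SE, adjusted p = 0.0738) and -0.50 ± 0.19 (SE, adjusted p = 0.0219). It was lower in the injured nerve of all 17 mice with both. *Mrps6* shares 305 of its 1533 exon bases with *Gm49711* and 159 with *Slc5a3* on the same strand, and what reads from these contribute was not tested.

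The other fallers belong to the large subunit, except *Mrps12* and *Mrps31*. *Mrpl49* (chr19:6053622-6057785) was at 26.1, 28.8, 28.9, 30.3 and 31.2 CPM in healthy and 18.2, 19.4, 22.03, 23.8 and 24.2 CPM in injured *Lepr*-ctrl nerves at 2 wpc. The groups were separate, with a log2 fold change of -0.43 ± 0.08 (SE, adjusted p = 2.77e-05), and in the 3 comparisons that follow it was -0.44, -0.20 and -0.17, the last at an adjusted p of 0.0995. The value in *Lepr*-ctrl nerves at 4 wpc passed in 2 of 9 other settings and in 3 of 9 fits without 1 library. *Mrpl10*, which anchors the stalk, had -0.28, -0.30, -0.25 and -0.12, and *Mrpl3*, of the peptidyl transferase region, -0.33, -0.18, -0.33 and -0.26. *Mrpl10* missed the threshold in *Lepr*-cKO nerves at 4 wpc (adjusted p = 0.241), and *Mrpl3* in *Lepr*-cKO nerves at 2 wpc (adjusted p = 0.0893). *Mrpl10* was lower in the injured nerve of all 17 mice, and *Mrpl49* and *Mrpl3* in 16 of 17. *Mrpl42*, *Mrpl51* and *Mrps31* passed as lower in 1 comparison, *Lepr*-ctrl at 2 wpc, with log2 fold changes of -0.31, -0.24 and -0.29, and *Mrps12* passed in *Lepr*-cKO nerves at 2 wpc, with -0.28. SLRKO2wpc126i was the highest injured *Lepr*-cKO nerve at 2 wpc for *Mrpl42* (59.46 CPM, next 37.01), *Mrpl51* (34.99, next 24.05), *Mrps31* (22.72, next 21.03) and *Mrpl3* (40.24, next 34.13). Without it 8 of the 78 genes were lower in that comparison, and which ones is not given here, so the misses in *Lepr*-cKO nerves at 2 wpc rest on this library. The call of *Mrps12* passed in 0 of 9 other settings and in 2 of 11 fits without 1 library, that of *Mrpl42* in 4 of 9 and 4 of 10, and that of *Mrps31* in 6 of 9 and 7 of 10. The difference between genotypes in the response, tested below, passed in none of these genes.

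The 14 genes that passed in none of the 4 comparisons were *Mrpl23*, *Mrpl46*, *Mrpl47*, *Mrpl48*, *Mrpl50* and *Mrps30* of the large subunit, *Mrps5*, *Mrps18b*, *Mrps22*, *Mrps23*, *Mrps27*, *Mrps33* and *Mrps34* of the small subunit, and *Mrps36*. Except for *Mrps5*, these 7 small subunit genes are counted here as specific to mitochondria. *Mrps34* shares 77.8% of its exon bases with neighbours, and *Mrpl23* was among the 3 genes with the lowest level. *Mrps22*, for example, was at 7.88, 8.29, 8.83, 9.12 and 9.35 CPM in healthy and 7.13, 7.23, 7.71 and 8.17 CPM in injured *Lepr*-ctrl nerves at 4 wpc, which overlapped, with a log2 fold change of -0.20 (95% interval -0.46 to 0.06, adjusted p = 0.166).

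Bacterial ribosomal protein S18 has 3 mitochondrial paralogs in mice, of which *Mrps18c* was counted here as bacterial-type and the others as specific to mitochondria, and their calls were unlike. *Mrps18c*, of the small subunit, rose in *Lepr*-cKO nerves at 2 wpc, by 0.60 ± 0.14 (SE, adjusted p = 0.000223), and in *Lepr*-ctrl nerves at 4 wpc, by 1.02 ± 0.15 (SE, adjusted p = 6.26e-07), and its other log2 fold changes were 0.17 (*Lepr*-ctrl, 2 wpc, adjusted p = 0.297) and 0.34 (*Lepr*-cKO, 4 wpc, adjusted p = 0.0586). At 4 wpc it was at 4.83, 4.96, 5.08, 6.15 and 6.97 CPM in healthy and 9.40, 10.8, 12.6 and 12.6 CPM in injured *Lepr*-ctrl nerves, and at 5.95, 6.32, 6.67, 6.70 and 7.73 and 6.61, 8.35, 8.53 and 10.3 CPM in *Lepr*-cKO nerves. The groups were separate in *Lepr*-ctrl and overlapped in *Lepr*-cKO mice. *Mrps18a*, of the large subunit, rose in 3 of the 4 comparisons, by 0.32, 0.24 and 0.34, and *Mrps18b* passed in none, with -0.05, 0.20, -0.26 and -0.30. *Mrps18c* shares 23.2% and *Mrps18b* 30.5% of exon bases with a noncoding neighbour. *Mrps36*, the member whose protein serves the 2-oxoglutarate dehydrogenase complex, also passed in none, with -0.12, 0.08, 0.28 and 0.15 at 0.724 to 3.95 CPM.

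Promoters were read because 32 of the genes moved together. The RefSeq promoter windows on GRCm38.p6, 250 bases before to 50 bases after a gene's start, held 69 of the 78 genes in 75 windows. Short motifs known from nuclear genes of mitochondrial proteins were counted on both strands. Their letters can overlap, since CCGGAAG ends as AAGATGGC begins, and GCGCATGC overlaps its own reverse complement. The NRF1 core GCGCATGC was found in 8 of the 69 genes (10.7% of their windows) and in 2.71% of all 32851 windows, the ETS (GABP) core CCGGAAG in 26 (34.7%) and in 8.86%, and the YY1 core AAGATGGC in 12 (16%) and in 2.75%. At least 1 motif stood in 38 of the 69, and 31 held none of these letters. Among the genes higher in all 4 comparisons, 25 had a window, and 3, 7 and 5 of these held the motifs in that order. Among the 8 genes that were lower it was 1, 3 and 3. Of the genes that passed in none of the 4 comparisons, 13 had a window, and it was 1, 6 and 1. No test was made of these counts.

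Windows of 5 genes are shown from 120 bases before to 30 bases after the start, 5′ to 3′ on the strand of the gene, with the motif letters above in capitals. *Mrpl41*, *Mrpl34* and *Mrpl32* were higher in all 4 comparisons, and *Mrps6* and *Mrpl49* were lower. They lie at chr2:24975069-24975218 (minus strand), chr8:71464806-71464955 (plus strand), chr13:14613008-14613157 (minus strand), chr16:92058216-92058365 (plus strand) and chr19:6057726-6057875 (minus strand) in this order.
Mrpl41: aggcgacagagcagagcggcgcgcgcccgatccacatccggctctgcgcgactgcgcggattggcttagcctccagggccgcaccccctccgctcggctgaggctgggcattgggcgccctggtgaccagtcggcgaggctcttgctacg
Mrpl34: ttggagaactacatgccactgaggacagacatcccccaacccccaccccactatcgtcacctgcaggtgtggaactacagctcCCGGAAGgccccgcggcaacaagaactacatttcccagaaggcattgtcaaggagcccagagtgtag
Mrpl32: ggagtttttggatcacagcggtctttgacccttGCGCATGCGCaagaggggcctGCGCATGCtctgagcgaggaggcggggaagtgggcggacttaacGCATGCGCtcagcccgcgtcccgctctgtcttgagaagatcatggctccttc
Mrps6: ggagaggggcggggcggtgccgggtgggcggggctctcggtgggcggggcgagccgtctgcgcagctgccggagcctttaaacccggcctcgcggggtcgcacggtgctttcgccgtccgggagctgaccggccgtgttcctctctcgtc
Mrpl49: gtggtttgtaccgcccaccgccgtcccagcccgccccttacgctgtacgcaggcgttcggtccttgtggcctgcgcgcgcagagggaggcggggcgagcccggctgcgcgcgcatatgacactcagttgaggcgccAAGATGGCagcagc

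*Mrpl32*, which rose by 0.57, 0.77, 0.93 and 0.84 on the log2 scale in the order of comparisons used above, showed the NRF1 core 4 times, 2 of them overlapping on opposite strands in the first run of capitals. *Mrpl34* held 1 ETS core before its start, and *Mrpl49* 1 YY1 core just after it. In *Mrpl41*, which rose, and *Mrps6*, which fell, none of the 3 motifs was in the window.

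No gene of the 78 passed the test between genotypes. In injured nerves at 2 wpc, 0 of 78 passed between *Lepr*-cKO and *Lepr*-ctrl, where 0.58% of all genes did. An unadjusted p under 0.05 (edgeR) was found for 4 of the 78 and for 1187 of all 18442 genes. DESeq2 called 0 of the 78 as well. In injured nerves at 4 wpc it was 0 again, where 1.31% of all genes passed. There 8 of the 78 had an unadjusted p under 0.05, all of them lower in *Lepr*-cKO nerves. Of all genes 3667 did, which is a larger share. DESeq2 called 2 of the 78 there, *Mrps21* and *Mrpl52*, both lower in *Lepr*-cKO nerves. Among the 14726 genes it adjusted over, 477 were higher and 264 lower. In healthy nerves 0 of 78 passed at either time, where 0.0108% (2 wpc) and 0.00542% (4 wpc) of all genes did, with 0 under an unadjusted p of 0.05 and 0 calls by DESeq2.

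At 4 wpc the lowest p-values were those of *Mrps21* and *Mrpl52*. *Mrps21* was at 26.9, 29.2, 30.3 and 37.4 CPM in injured *Lepr*-ctrl and 19.2, 20.4, 23.9 and 25.8 CPM in injured *Lepr*-cKO nerves, which did not overlap. The log2 fold change of *Lepr*-cKO over *Lepr*-ctrl was -0.47 (95% interval -0.74 to -0.21, adjusted p = 0.0555). For *Mrpl52*, whose injured nerves are given above, it was -0.47 (-0.74 to -0.20, adjusted p = 0.0563), and for *Mrps18c* -0.43 (-0.76 to -0.10, adjusted p = 0.133). Without the injured nerve KO-177Sni, 4 genes passed, *Mrps21*, *Mrpl52*, *Mrpl30* and *Mrps18a*, each lower in *Lepr*-cKO nerves. The share of all genes that passed in that fit is not given here. At 2 wpc the lowest p-values were those of *Mrpl39* (0.24, 0.05 to 0.44, adjusted p = 0.523), *Mrps30* (0.25, 0.05 to 0.45, adjusted p = 0.568) and *Mrpl53*. Of healthy nerves, the largest such differences by p-value were in *Mrpl45* at 2 wpc (0.16, -0.04 to 0.37) and *Mrps18c* at 4 wpc (0.25, -0.04 to 0.55).

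As a group, the median log2 fold change of *Lepr*-cKO over *Lepr*-ctrl over the 78 genes was 0.07 at 2 wpc and -0.08 at 4 wpc in injured nerves (0.02 and 0.03 with library totals in place of TMM scaling), and 0.01 at either time in healthy nerves, where all genes tested had medians of 0.01 and 0.03 in injured nerves. The mean level of the injured nerves overlapped between genotypes at both times. The value at 2 wpc was 0.01 without SLRKO2wpc126i. The difference between genotypes in the response to injury passed in 0 of 78 genes at 2 wpc and 0 at 4 wpc, as in 0% and 0% of all genes. Of the 78, 4 and 5 had an unadjusted p under 0.05 for this difference (edgeR), where 797 and 2013 of all genes did. DESeq2 called 0 of the 78 at either time. The lowest unadjusted p of the difference in edgeR was that of *Mrps18c* at 4 wpc (-0.68, 95% interval -1.12 to -0.24, adjusted p = 0.384). The median SE of the difference between injured nerves over the 78 genes was 0.11 at 2 wpc and 0.13 at 4 wpc. At 4 wpc, where the median of the 78 genes lay below 0, other groups of genes differed in level too. The Schwann cell genes given below summed to 26700 to 36800 CPM in injured *Lepr*-ctrl and 32700 to 82800 CPM in injured *Lepr*-cKO nerves, and the macrophage genes to 2420 to 5200 and 1620 to 2690 CPM. Their part in the values above was not tested.

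**Figure D4:**
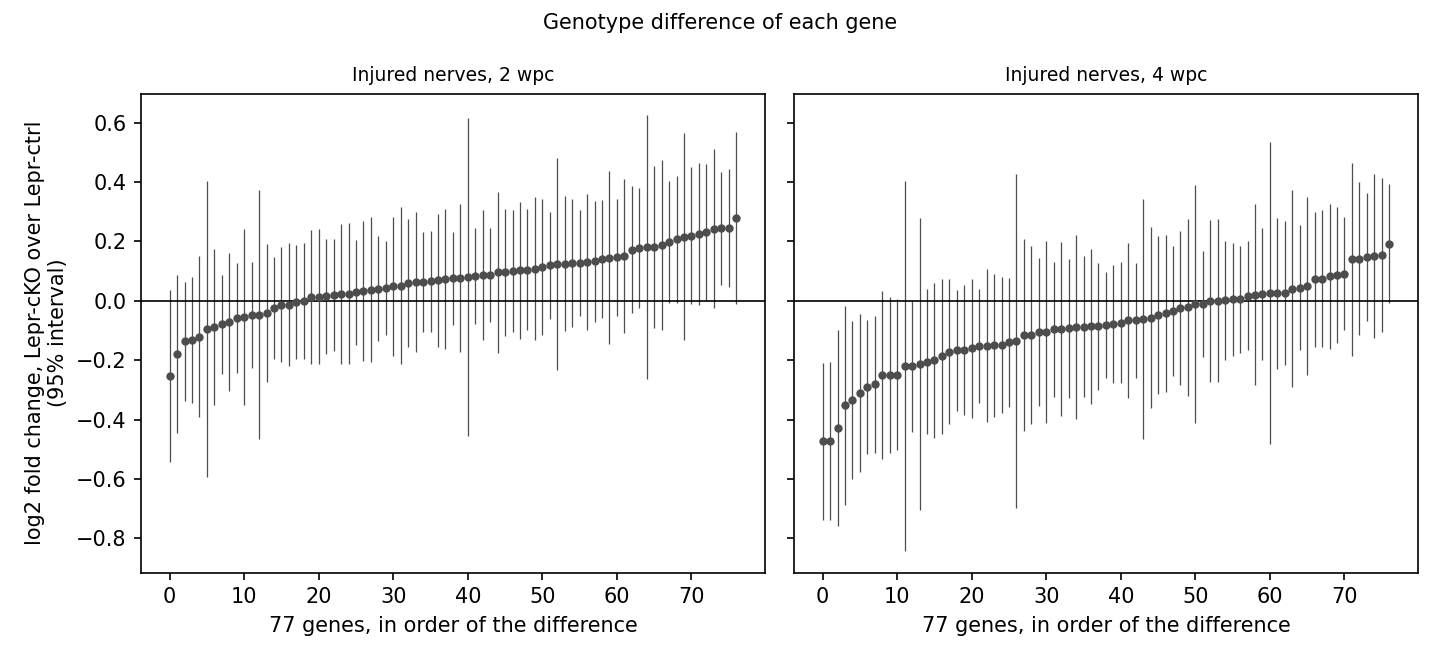
Log2 fold change of *Lepr*-cKO over *Lepr*-ctrl injured nerves (y axes) with its unadjusted 95% interval for 77 genes (x axes, in order of the value, *Mrpl53* left out) at 2 wpc (left) and 4 wpc (right). Most intervals hold 0, and the lowest values at 4 wpc are those of *Mrps21* and *Mrpl52*, at -0.47 each.

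Between 2 and 4 wpc few of the genes changed in injured nerves. In *Lepr*-ctrl nerves 4 were higher and 1 lower at 4 wpc, where 10.3% and 11% of all genes were. The 4 were *Mrpl52* (log2 fold change 0.52, adjusted p = 0.00245), *Mrpl34* (0.44), *Mrpl49* (0.29) and *Mrpl30* (0.33), a large subunit protein of bacterial type, and the lower one was *Mrps10* (-0.27), of the small subunit. In *Lepr*-cKO nerves 3 were higher and 6 lower, where 8.03% and 6.79% of all genes were. The higher ones were *Mrpl9* (0.37), *Mrpl10* (0.33) and *Mrpl53*, and the lower ones *Mrps18c* (-0.58, adjusted p = 0.00838), *Mrps18b* (-0.54), *Mrpl33* (-0.43), *Mrps22* (-0.42), *Mrps28* (-0.35) and *Mrps30* (-0.30).

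Against the shares of all genes, 3 of these 4 counts were lower, and they moved with single libraries. In *Lepr*-ctrl nerves the count of higher genes was 1 without WT-170Sni or WT-171Sni. That of lower genes was 0 without SLRKO2wpc123i, SLRKO2wpc144i, SLRKO2wpc147i, WT-171Sni or WT-178Sni and 2 without SLRKO2wpc130i or SLRKO2wpc131i. In *Lepr*-cKO nerves the count of higher genes was 5 without SLRKO2wpc126i, 1 without SLRKO2wpc138i or KO-177Sni and 0 without KO-175Sni. That of lower genes was 4 without SLRKO2wpc126i, 11 without SLRKO2wpc128i or SLRKO2wpc138i and 10 without KO-175Sni. The median log2 fold change from 2 to 4 wpc was 0.09 in *Lepr*-ctrl nerves, or -0.08 with library totals in place of TMM scaling, and -0.09 in *Lepr*-cKO nerves. In healthy nerves, between the same cohorts, it was -0.08 and -0.09. There, 4 genes were lower in *Lepr*-ctrl nerves, *Mrps18c* (-0.72), *Mrps14* (-0.53), *Mrps21* (-0.46) and *Mrpl11* (-0.34), and 1 in *Lepr*-cKO nerves, *Mrps21* (-0.55), where 1.64% and 0.293% of all genes passed in either direction. Whether the course differs between genotypes was not tested.

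*Dap3*, *Chchd1*, *Aurkaip1*, *Gadd45gip1* and *Ptcd3*, whose proteins are also part of the mitoribosome, have symbols outside the rule. *Dap3*, of the small subunit, was at 27.4, 30.3, 30.8, 32.1 and 33.3 CPM in healthy and 42.1, 42.7, 43.4, 45.8 and 47.5 CPM in injured *Lepr*-ctrl nerves at 2 wpc, without overlap, with log2 fold changes of 0.53, 0.62, 0.47 and 0.51 over the 4 comparisons. *Chchd1* had 0.35, 0.61, 0.63 and 0.42, *Aurkaip1* 0.59, 0.55, 0.90 and 0.69, *Gadd45gip1* 0.39, 0.28, 0.18 and 0.48 and *Ptcd3* -0.08, 0.08, -0.20 and -0.12. *Ptcd3* was lower in *Lepr*-ctrl nerves at 4 wpc (adjusted p = 0.0333). Of the 5 genes 4, 3, 3 and 4 were higher in the 4 comparisons, where 33.7%, 35.9%, 32.4% and 29.6% of all genes were. The mitochondrial ribosomal RNAs, which the proteins bind, passed as higher in all 4 comparisons. At 2 wpc healthy and injured nerves overlapped. *mt-Rnr2* was at 1953 to 2605 CPM in healthy and 1923, 3093, 3704, 4339 and 14750 CPM in injured *Lepr*-ctrl nerves there. In *Lepr*-cKO nerves at 2 wpc SLRKO2wpc126i, at 1401 CPM, lay below all healthy nerves (1947 to 2917 CPM). At the RNA level *mt-Rnr2* was at 1801, 1868, 1935, 2133 and 2274 CPM in healthy and 12240, 12920, 15260 and 15690 CPM in injured *Lepr*-ctrl nerves at 4 wpc, with a log2 fold change of 2.81 ± 0.49 (SE, adjusted p = 6.77e-06), and *mt-Rnr1* changed by 3.05 ± 0.51 (SE, adjusted p = 3.3e-06). In injured *Lepr*-cKO nerves at 4 wpc *mt-Rnr2* was at 921, 5831, 8271 and 12460 CPM, a wide spread that reached below all healthy nerves in KO-169Sni. The library kit enriches polyadenylated RNA, which recovers ribosomal RNA in part. The 13 messenger RNAs that the mitoribosome translates summed to 17300 to 35400 CPM in healthy and 26600 to 329000 CPM in injured nerves, and the 7 of them that passed the filter were higher in all 4 comparisons.

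Other genes of mitochondrial translation were read from the same fit. Of all genes tested, 33.7%, 35.9%, 32.4% and 29.6% were higher and 30.2%, 29.2%, 31.2% and 25.8% lower in the 4 comparisons. The shares of the assembly factor and synthetase genes below that were higher lay near those of all genes. Of 16 translation factors and partners 7, 9, 9 and 7 were higher and 1 was lower in each comparison, with medians of 0.36, 0.42, 0.42 and 0.35 on the log2 scale. *Tsfm*, the exchange factor of the elongation factor *Tufm*, had 1.31, 1.21, 1.40 and 1.09, *Tufm* 0.53, 0.64, 0.52 and 0.58, and *Mtfmt*, which formylates the initiator transfer RNA, 0.67, 0.61, 0.40 and 0.47, and *Mtif3*, an initiation factor, was the 1 that was lower, with -0.61, -0.51, -0.42 and -0.35. Of 25 assembly factors 9, 7, 7 and 6 were higher and 7, 8, 3 and 2 lower, with medians of 0.08, 0.06, 0.03 and 0.07. *Mettl17* rose by 1.04, 0.70, 0.59 and 0.65, and the ribosomal RNA methyltransferase *Tfb1m* fell, with -0.86, -0.73, -0.59 and -0.50. Of 20 mitochondrial transfer RNA synthetases and amidotransferase genes 7, 7, 5 and 6 were higher and 6, 4, 7 and 5 lower, with medians of 0.03, 0.07, -0.06 and 0.17. Without SLRKO2wpc126i, 2 translation factors were lower in *Lepr*-cKO nerves at 2 wpc and the synthetase median was -0.04. *Rars2* had 0.65, 0.71, 0.50 and 0.60 and *Nars2* -0.84, -0.72, -0.95 and -0.51.

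The medians of 75 nuclear genes of respiratory chain and ATP synthase subunits were 0.24, 0.42, 0.57 and 0.44, and those of 78 genes of the cytosolic ribosome 1.11, 1.05, 1.49 and 1.04. Without SLRKO2wpc126i, the *Lepr*-cKO medians at 2 wpc were 0.22 for the respiratory chain genes and 0.24 for the mitoribosomal genes. Of the cytosolic ribosome genes 73, 76, 71 and 71 were higher and 0 lower in each, against the shares of all genes given above. The difference between the lists was not tested.

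**Figure D5:**
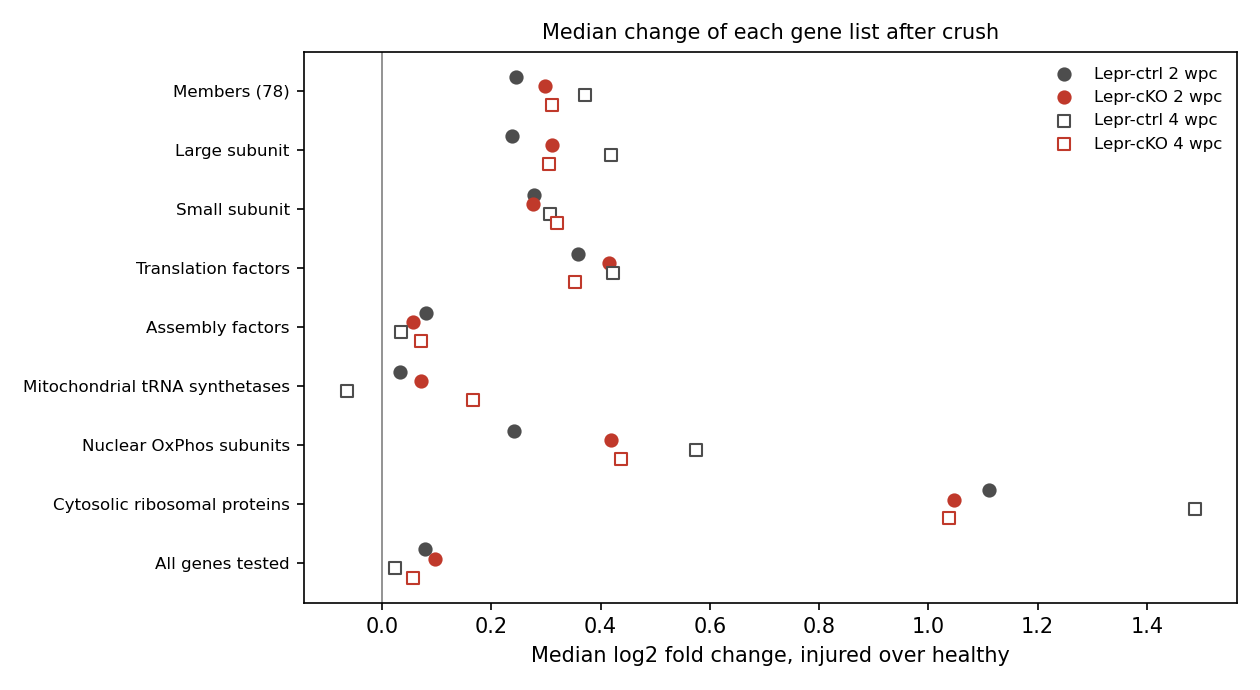
Median log2 fold change of injured over healthy nerves (x axis) of the 78 members, of each subunit, of other gene lists and of all genes tested (y axis), in grey for *Lepr*-ctrl and red for *Lepr*-cKO, circles for 2 wpc and open squares for 4 wpc. The members sit at 0.25 to 0.37, the cytosolic ribosomal proteins at 1.04 to 1.49 and all genes at 0.02 to 0.10.

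Some lists of genes that mark cell types moved with injury too, and others overlapped between healthy and injured nerves. The 10 Schwann cell genes summed to 98500 to 122000 CPM in healthy and 11600 to 53700 CPM in injured *Lepr*-ctrl nerves at 2 wpc, and 11 macrophage genes to 219 to 368 and 1520 to 4100 CPM. At 4 wpc the injured nerves had 26700 to 36800 CPM of the Schwann cell genes in *Lepr*-ctrl and 32700 to 82800 CPM in *Lepr*-cKO mice, and 2420 to 5200 and 1620 to 2690 CPM of the macrophage genes. The 10 proliferation genes summed to 8.05 to 15.1 CPM in healthy and 108 to 264 CPM in injured *Lepr*-ctrl nerves at 2 wpc. In injured *Lepr*-ctrl nerves at 4 wpc they summed to 16.1 to 41.9 CPM. The 6 adipocyte genes summed to 0.93 to 1.74 and 16.9 to 167 CPM in healthy and injured *Lepr*-ctrl nerves at 2 wpc. In the same nerves 8 fibroblast and perineurial genes summed to 4690 to 7810 and 2770 to 7950 CPM, and 5 erythrocyte genes to 7.75 to 124 and 2.13 to 115 CPM. Both of these lists overlapped. None of the Schwann cell or macrophage genes was at 0 throughout a group, and the part of these cells in the changes was not tested.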

How the data were processed

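RNA of sciatic endoneurium was sequenced in 39 libraries of 8 groups. According to the methods and the submitters' processing notes, the authors aligned single-end reads with STAR 2.5 to GRCm38 and deposited raw counts per gene from featureCounts 1.5.0-p1. How reads over shared exons were counted is not given in the sources used here, and the kit does not mark strand. Here, genes passed with at least 10 counts (edgeR filterByExpr, minimum total count 15), which left 18442, and TMM-scaled counts were fitted in 1 model over the 8 groups with the edgeR quasi-likelihood test (edgeR 4.0.16, limma 3.58.1, R 4.3.3). Benjamini-Hochberg adjustment ran over all genes tested, and a gene was called at an adjusted p under 0.05. CPM, and log2 CPM with a prior count of 2 for the mean over genes, used the same scaling. The script was tested on simulated data. DESeq2 1.42.0 and the other alternatives are given in the closing section. Named genes were up to 5 per direction with the largest changes in each comparison, the 3 lowest p-values where none passed, the 3 highest and lowest levels, the S18 paralogs, *Mrpl12*, *Mrps36*, and the mitoribosome genes with other symbols. Members of list counts, printed promoters and pathway examples were chosen with values seen, and members and lists were chosen with earlier results of these data known. The labels give both nerves of 17 mice the same animal number, so numbers pair the samples, and over 5000 genes the deviations of the 2 nerves correlated at -0.0849 to 0.277, above 0.1 in 10 of 17.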

Additional observations from a re-analysis of the deposited data

Results flagged for a closer look

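Of 17 genes named above, each of the 8 groups was examined for a library far from the rest, and 5 were found, where chance alone flags about 1 in 20 groups. *Mrpl12* was at 51.55 CPM in the *Lepr*-cKO injured nerve SLRKO2wpc126i at 2 wpc, with the next at 31.47 CPM, and this is the library with skeletal muscle genes. The *Lepr*-cKO healthy nerve KO-177Snc at 4 wpc stood apart from its group for 3 genes, with 20.86 CPM of *Mrpl12* (next 18.05), 54.63 CPM of *Mrps6* (next 42.89) and 25.65 CPM of *Mrps18a* (next 22.3). *Mrps18a* was at 32.51 CPM in the *Lepr*-ctrl injured nerve SLRKO2wpc144i at 2 wpc, with the next at 25.68 CPM. What sets these libraries apart was not tested.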

How the results depend on the processing

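Direction under the other settings was checked for the 32 of the 78 genes named by the rule above, and no call of these changed direction. The other genes were not checked for this. Medians between genotypes and over time, which lie within 0.1 of 0, could change sign (below). *Mrpl41*, *Mrpl34*, *Mrps28* and *Mrps9* passed in all 4 comparisons of injured with healthy nerves under every setting and without each library in turn. The number of genes higher in all 4 was 28 (no expression filter) to 43 (library totals without TMM), against 32. With library totals without TMM, the median of all genes moved from 0.08, 0.10, 0.02 and 0.06 to 0.27, 0.22, 0.07 and 0.20 (log2, *Lepr*-ctrl and *Lepr*-cKO at 2 wpc, then at 4 wpc), while the distance of the 78 genes from it stayed at 0.17, 0.21, 0.35 and 0.25. Under these totals 2, 2, 1 and 0 of the 78 were lower after injury, the median was 0.434 in *Lepr*-ctrl nerves at 2 wpc and 0.451 in *Lepr*-cKO nerves at 4 wpc, and the difference in mean level 0.425 and 0.471. At 4 wpc the median between genotypes in injured nerves became 0.0294, the mean level difference 0.0272 and the median difference in response -0.00272, and from 2 to 4 wpc the *Lepr*-ctrl median became -0.0782, with 1 gene higher and 5 lower, and 3 lower in *Lepr*-cKO nerves. With no expression filter, 4 genes were lower in *Lepr*-ctrl nerves at 2 wpc and 1 in *Lepr*-cKO nerves at 4 wpc, and 1 and 0 were higher and lower from 2 to 4 wpc in *Lepr*-ctrl and 1 and 3 in *Lepr*-cKO nerves. With only the groups compared in the fit, 1 was lower in *Lepr*-cKO nerves at 4 wpc, and the course gave 2 and 0 in *Lepr*-ctrl and 0 and 0 in *Lepr*-cKO nerves. DESeq2 and a filter of 10 counts in every library each called 2 of the 78 genes lower in *Lepr*-cKO injured nerves at 4 wpc. Of all genes, 264 of 14726 and 89 of 12887 were called lower there. From 2 to 4 wpc in *Lepr*-ctrl nerves, DESeq2 called 9 of the 78 higher and 0 lower. That count of lower genes was 0 with DESeq2 size factors, and 2 without mitochondrially encoded genes or with a term for sex. With the animal as replicate block, 1 gene was lower in *Lepr*-cKO nerves at 4 wpc, and no other count of calls moved by over 1.5 times. Without each library in turn, the lower genes after injury numbered 4 to 7, 3 to 8 and 1 to 3 (*Lepr*-ctrl 2 wpc, *Lepr*-cKO 2 wpc, *Lepr*-cKO 4 wpc), those between genotypes in injured nerves at 4 wpc 0 to 4, and those from 2 to 4 wpc 1 to 6 higher and 0 to 2 lower in *Lepr*-ctrl and 0 to 5 higher and 4 to 11 lower in *Lepr*-cKO nerves. The cause of these shifts was not tested. Injured nerves at 4 wpc had the fewest reads, and the effect of depth on the calls was not tested.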
